A study of Mus musculus with 10 samples.

Results

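Shieldin is a small protein complex that acts at broken DNA ends, and 7 genes of shieldin and of the choice between end joining and resection were followed in the left ventricle of mice lacking the melanocortin 4 receptor. They are the shieldin subunits Shld1, Shld2 and Mad2l2, the upstream factors Trp53bp1 and Rif1, the opposing factor Brca1, and Ctc1 of the CST complex. They make up 7 of the 24160 rows of the expression table, and all 7 passed the filter on low values, a mean of at least 1 over the libraries. The set was chosen because Shld1 is lower in the knockout. The Shld1 difference between genotypes is therefore given below as a description, without a test. The other 6 were added for their roles, with earlier results of these data known.

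When both strands of DNA break, the cell either joins the ends directly or trims one strand of each end so that a sister copy can be used as template. The Trp53bp1 protein reads modified histones beside the break and, through Rif1, brings in shieldin, which holds back trimming. CST, a complex best known for completing telomere ends, is recruited by shieldin and brings DNA polymerase alpha to fill in ends already trimmed. Brca1 works against this arm and favours trimming and homologous recombination. Heart muscle cells of adult mice rarely divide, and recombination genes are known to be expressed mainly in dividing cells.

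Polyadenylated RNA came from the posterior wall of the left ventricle of 6 MC4R-/- and 4 WT libraries. The labels give the strain of all mice as C57BL6/J, their age as 30 weeks, their housing as 24 °C, and their parents as heterozygous on both sides. Neither the construction of the knockout allele nor the sex of the mice is given in the labels. Libraries are not said in so many words to be separate animals, so a p-value here measures only spread among libraries, which may be technical.

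The libraries held 4145033 to 6425785 reads assigned to genes. Mc4r, the targeted gene, had 4 reads over the MC4R-/- libraries and 2 over the WT libraries, so it checks no label at this depth. Ventricular muscle markers were abundant in every library, with 8 of 8 present and a summed normalized count of 411616 to 466645 in MC4R-/- and 430933 to 480141 in WT. WT replicate 2 stood apart in lymphocyte markers, with a sum of 526 against 12.2 to 43.3 in the other 9 libraries. Of 8 markers of dividing cells, 4 had the higher mean in MC4R-/-. Cenpf alone passed the test, as lower in MC4R-/-, as did 0.171% of all genes tested. The sum of the 8 ran from 166 to 289 in MC4R-/- and from 223 to 332 in WT. Fibroblast markers had the higher mean in MC4R-/- in 5 of 5. Lum alone passed, as higher in MC4R-/-, as did 0.287% of all genes tested. The sum of the 5 ran from 4694 to 5403 in MC4R-/- and from 4099 to 4859 in WT. Macrophage markers had the higher mean in MC4R-/- in 5 of 5, with none past the test. A log2 fold change below 0 was found in 51.6% of all genes tested. The macrophage sums, 1169.6 to 1337 in MC4R-/- and 980.2 to 1159 in WT, do not overlap. Single genes do not overlap in 2.28% of all genes tested, and no such share was measured for sums. Endothelial markers had the higher mean in MC4R-/- in 2 of 4, with none past the test. Their sums ran from 4650 to 5780 in MC4R-/- and from 4917 to 5513 in WT. Atrial marker sums ran from 539 to 3155 in MC4R-/- and from 504 to 1338 in WT. The part of these cell types in the results below was not tested. In bulk tissue, fewer cells of a type and less RNA per cell cannot be told apart.

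Shld1 binds the far end of Shld2 and completes the complex. Its gene lies on chromosome 2 from 132686931 to 132751055 (GRCm38), on the plus strand. RefSeq gives it 3 starts of transcription, and a single count over the gene cannot tell the starts apart. GENCODE lists its protein-coding transcripts at 545, 1076 and 1471 bases. The GENCODE transcript paired with the counted row begins 3352 bases after the first start, 126 bases after the second and 315 bases before the third. The 250 bases before the first and the second start are shown because Shld1 is the gene that was lower. Those before the start of Shld2 are shown because this binding partner had no difference past the threshold. All are from RefSeq (GRCm38.p6), at chr2:132686681-132686930 and chr2:132689907-132690156 on the plus strand and chr14:34310518-34310767 on the minus strand, each written along its own gene. Capitals mark the letters AAGATGG (a YY1-like motif) and GGGCGG (the SP1 motif), on either strand.
Shld1, first start: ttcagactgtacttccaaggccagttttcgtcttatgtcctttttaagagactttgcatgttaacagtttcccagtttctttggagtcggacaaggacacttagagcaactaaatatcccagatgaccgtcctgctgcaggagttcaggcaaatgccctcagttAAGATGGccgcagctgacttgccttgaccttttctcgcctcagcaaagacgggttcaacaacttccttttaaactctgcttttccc
Shld1, second start: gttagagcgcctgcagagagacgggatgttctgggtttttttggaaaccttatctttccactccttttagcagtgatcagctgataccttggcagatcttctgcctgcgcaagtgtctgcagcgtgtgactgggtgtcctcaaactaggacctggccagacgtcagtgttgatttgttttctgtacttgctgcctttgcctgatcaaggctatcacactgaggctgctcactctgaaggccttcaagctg
Shld2: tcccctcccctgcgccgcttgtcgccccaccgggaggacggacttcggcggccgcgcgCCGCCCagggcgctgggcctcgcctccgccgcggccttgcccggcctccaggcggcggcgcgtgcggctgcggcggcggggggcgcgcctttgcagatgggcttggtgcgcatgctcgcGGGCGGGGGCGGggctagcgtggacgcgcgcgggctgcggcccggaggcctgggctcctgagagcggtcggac

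The stretch before the first start of Shld1 is 46.0% G or C with 6 CpG pairs, against medians of 52.4% and 6 over 32851 mouse promoters. The stretch before the second start is 50.4% G or C with 5 CpG pairs, and that before the third, not printed, is 38.4% with 3 CpG pairs. The Shld2 stretch is 81.2% G or C with 41 CpG pairs, and 99.1% of promoters had a lower G and C content. AAGATGG begins at position -86 from the first start of Shld1 and is held by 4.49% of all promoters. GGGCGG begins at -192, -73 and -67 in Shld2, and is held by 32.7% of promoters. The stretches before the second and the third start of Shld1 held none of the 6 motifs searched, the others being CCGGAAG (ETS, 6.91% of promoters), CACGTG (E-box, 6.02%), TTGGCGC (E2F, 1.97%) and CCAAT (33.8%). The motifs were chosen after the Shld1 sequence was seen, and a match is a run of letters, not a binding site.

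Shld1 was lower in every MC4R-/- library than in any WT library. Its normalized counts (reads over the size factor of the library) were 118, 187, 139, 174, 177 and 169.7 in MC4R-/- replicates 1 to 6, against 247, 262, 279.7 and 263 in WT replicates 1 to 4. The groups are separated by 60.3 normalized counts, the lowest WT library minus the highest MC4R-/- library. MC4R-/- libraries averaged 161 ± 26.5 (SD, n = 6) and WT libraries 263 ± 13.3 (SD, n = 4), so the knockout mean is 61.1% of the WT mean. On the log2(normalized count + 1) scale the difference, MC4R-/- over WT, is -0.72. Without WT replicate 2, the library with lymphocyte transcripts, it is -0.72. Such a separation of the genotypes, in the lower direction, was found in 0.938% of the 14611 genes tested, and nothing is read from it for a gene chosen by this contrast.

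The 6 MC4R-/- libraries differed among themselves more than the 4 WT libraries did. The coefficient of variation of Shld1 was 16.5% in MC4R-/- and 5.04% in WT. Counting error alone gives about 7.03% at its mean of reads over the libraries of both genotypes. The WT value lies below that figure, so the WT libraries spread less than counting error alone would give. Replicates 1 and 3 were the lowest of the knockout libraries, with replicate 1 at 45.0% of the WT mean, and replicate 2 the highest at 71.1%. This difference in spread was not tested. In reads, the counts behind these values were 121 to 181 in MC4R-/- and 202 to 299 in WT.

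**Figure D1:**
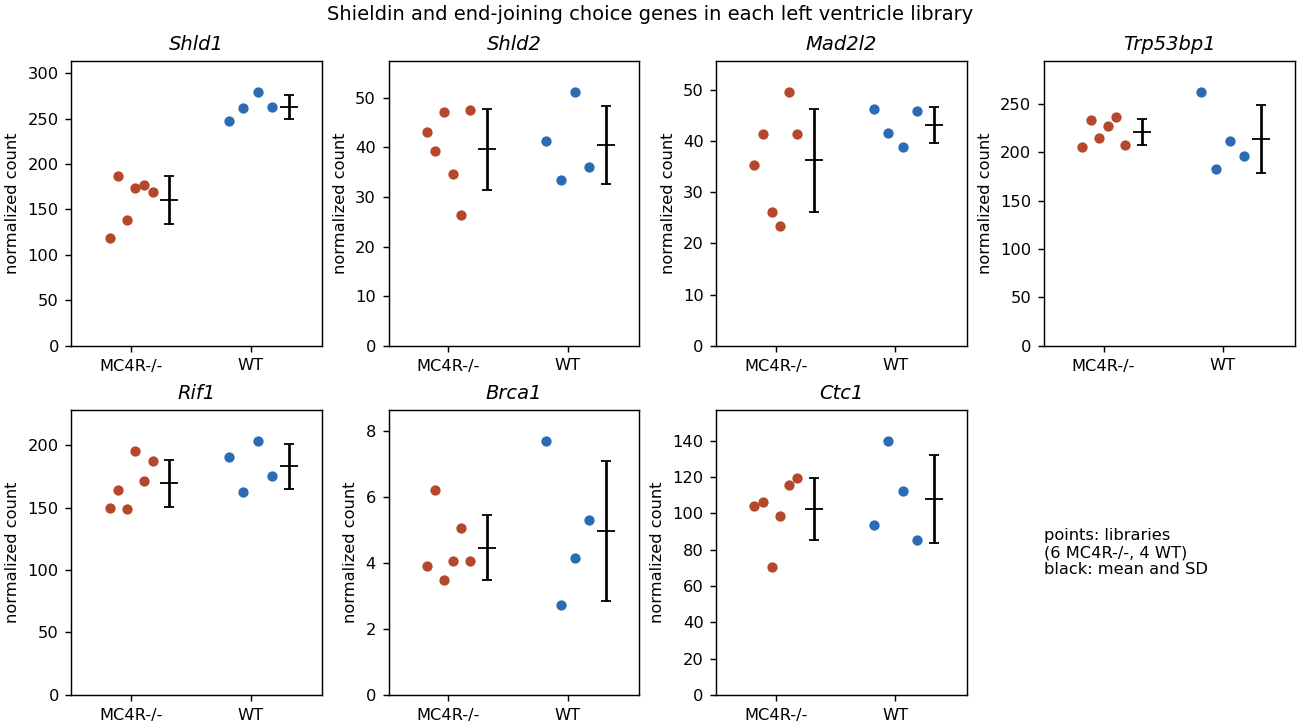
Normalized count of each of the 7 genes (vertical axes, each from 0) in 6 MC4R-/- and 4 WT libraries, with points for libraries and black marks for mean and SD. The genotypes are separate in Shld1, from 118 to 187 in MC4R-/- against 247 to 279.7 in WT, and overlap in the other 6 genes.

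None of the other 6 genes passed the test between genotypes. By limma with Benjamini-Hochberg adjustment over all genes 0 of 6 passed, against 0.459% of all genes tested (0.171% lower and 0.287% higher in MC4R-/-), and 0 had an unadjusted p below 0.05, against 9.6% of all genes. By edgeR and by DESeq2 0 passed as well, though DESeq2 gave Brca1 no adjusted p. Of all 14611 genes, 60 passed by edgeR and 118 by DESeq2. The libraries of the genotypes overlapped in all 6, while they do not overlap in 2.28% of all genes tested.

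Shld2, the subunit that binds single-stranded DNA, had 26.3 to 47.5 normalized counts in MC4R-/- with a median of 41.2, against 41.4, 33.4, 51.2 and 36.1 in WT replicates 1 to 4. Of the MC4R-/- libraries, 5 of 6 lay within the WT range and replicate 5 lay below it. The means were 39.6 ± 8.13 (SD, n = 6) in MC4R-/- and 40.5 ± 7.86 (SD, n = 4) in WT, a log2 fold change of -0.04 ± 0.19 (SE; limma, adjusted p = 0.972). Its 95% interval runs from a fold of 0.743 to 1.27.

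Mad2l2, also called Rev7, is the adaptor of shieldin and a subunit of the translesion polymerase zeta. Its normalized counts ran from 23.4 to 49.6 in MC4R-/- with a median of 38.3, against 46.2, 41.5, 38.8 and 45.8 in WT replicates 1 to 4. Knockout replicates 3 and 4 were the lowest of the 10 libraries, and replicate 5 was the highest. The means were 36.2 ± 10.001 (SD, n = 6) in MC4R-/- and 43.1 ± 3.56 (SD, n = 4) in WT. The log2 fold change of -0.29 ± 0.20 (SE) is the largest in size of the 6 and did not pass (limma, adjusted p = 0.70), with a 95% interval from a fold of 0.618 to 1.09. Without MC4R-/- replicate 4 it was -0.18.

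Shld3, the remaining shieldin subunit, had no row matched to it in the expression table and was not analysed here.

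Trp53bp1, which starts this arm by reading histone marks at the break, had 205 to 236 normalized counts in MC4R-/- with a median of 221, against 263, 182, 212 and 196 in WT. All 6 MC4R-/- libraries lay inside the WT range. The means were 221 ± 13.4 (SD, n = 6) in MC4R-/- and 213 ± 35.04 (SD, n = 4) in WT, a log2 fold change of 0.06 ± 0.10 (SE; limma, adjusted p = 0.898). The value has a limit, since exons of Trp53bp1 share 2130 bases with exons of Tubgcp4 on the opposite strand in GENCODE, and no source used here gives the strand setting of the counting. Tubgcp4, a part of the gamma-tubulin complex, had 207 ± 26.4 (SD, n = 6) in MC4R-/- and 169 ± 18.8 (SD, n = 4) in WT (limma, adjusted p = 0.318).

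Rif1, which relays the Trp53bp1 signal to shieldin and also sets replication timing, had 149 to 195 normalized counts in MC4R-/- with a median of 168, against 190.5, 162, 204 and 175 in WT. Of the MC4R-/- libraries, 4 of 6 lay within the WT range, and replicates 1 and 3 lay below it. Its log2 fold change was -0.11 ± 0.10 (SE; limma, adjusted p = 0.786), with means of 169 ± 19.0 (SD, n = 6) in MC4R-/- and 183 ± 17.9 (SD, n = 4) in WT.

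Brca1, the factor that favours resection, was near the limit of detection. It had 4 to 6 reads per library in MC4R-/- and 3 to 8 in WT, or 4.46 ± 0.996 (SD, n = 6) and 4.96 ± 2.11 (SD, n = 4) normalized counts. The log2 fold change of -0.08 ± 0.37 (SE; limma, adjusted p = 0.974) carries a 95% interval from a fold of 0.557 to 1.62.

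Ctc1, the largest subunit of CST, had 70.6 to 119 normalized counts in MC4R-/- with a median of 105, against 93.3, 139.9, 112 and 85.4 in WT. Replicate 3 was the lowest of the MC4R-/- libraries and the only one below the WT range. The means were 102 ± 17.3 (SD, n = 6) in MC4R-/- and 108 ± 24.2 (SD, n = 4) in WT, with a log2 fold change of -0.07 ± 0.15 (SE; limma, adjusted p = 0.928).

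Of the 6 genes, 5 had a negative log2 fold change, as had 51.6% of all genes tested, and each 95% interval holds 0. For Trp53bp1, Rif1 and Ctc1 the intervals run from a fold of 0.906 to 1.20, 0.799 to 1.07 and 0.773 to 1.18.

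**Figure D2:**
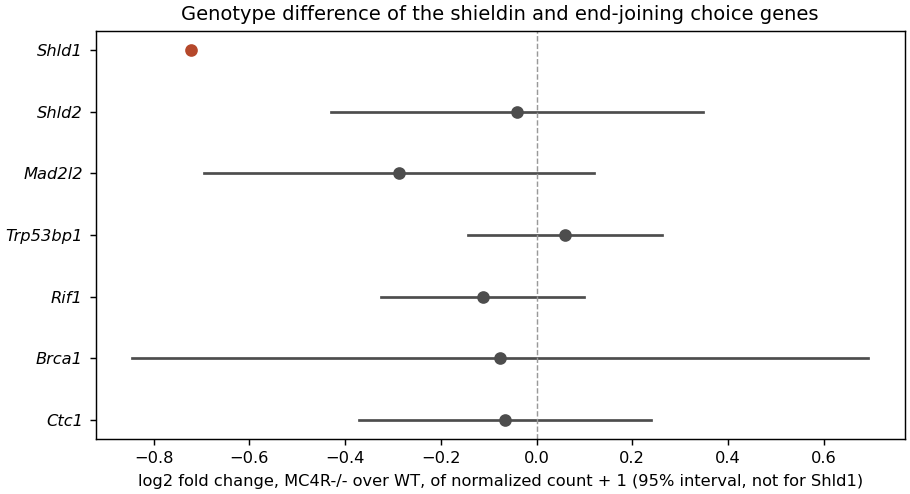
Log2 fold change, MC4R-/- over WT, of normalized count + 1 (horizontal axis) for each of the 7 genes, with points for limma estimates and lines for 95% intervals. Shld1 lies at -0.72 and is drawn without an interval, since it was chosen for this difference, and the intervals of the other 6 genes hold 0.

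Set against transcript length, Shld1 was the most abundant of the 7 in both genotypes, a comparison that does not rest on the difference between them. Levels are normalized counts per kb of the longest GENCODE transcript paired with the row. Shld1 had 109 ± 17.99 per kb in MC4R-/- (SD, n = 6) and 179 ± 9.01 per kb in WT (SD, n = 4). In WT this level per kb exceeds that of 86.3% of the tested genes. Mad2l2 had 23.6 ± 6.52 per kb in MC4R-/- and 28.1 ± 2.32 per kb in WT. Shld1 was above Mad2l2 in 10 of 10 libraries.

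Mad2l2, Ctc1, Trp53bp1 and Rif1 formed a group of like level per kb. Ctc1 had 24.6 ± 4.16 per kb in MC4R-/- and 25.9 ± 5.82 in WT. Trp53bp1 had 22.9 ± 1.39 per kb in MC4R-/- and 22.2 ± 3.64 in WT. Rif1 had 19.9 ± 2.24 per kb in MC4R-/- and 21.5 ± 2.101 in WT. The order within this group is not stable, since Mad2l2 was above Ctc1 in 5 of 10 libraries, Ctc1 above Trp53bp1 in 8 of 10, and Trp53bp1 above Rif1 in 6 of 10. Shld2 lay below Rif1 in 10 of 10 libraries, at 11.9 ± 2.45 per kb in MC4R-/- and 12.2 ± 2.37 in WT. Brca1 was the lowest in 10 of 10 libraries, at 0.679 ± 0.152 per kb in MC4R-/- and 0.755 ± 0.321 in WT.

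The transcripts of the shieldin subunits were thus far from equal. Per kb, Shld1 stood to Shld2 at a ratio of 9.69 ± 3.41 in MC4R-/- (SD, n = 6) and 15.0 ± 2.50 in WT (SD, n = 4). Its ratio to Mad2l2 was 4.92 ± 1.57 in MC4R-/- and 6.42 ± 0.841 in WT. The lowest ratio of Shld1 to Shld2 in any library was 6.20. These ratios take the annotated lengths as given, 1471 bases for Shld1 and 3317 for Shld2. GENCODE also lists shorter protein-coding transcripts, down to 545 bases for Shld1 and 397 for Shld2, so the ratios can lie on either side of these values.

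**Figure D3:**
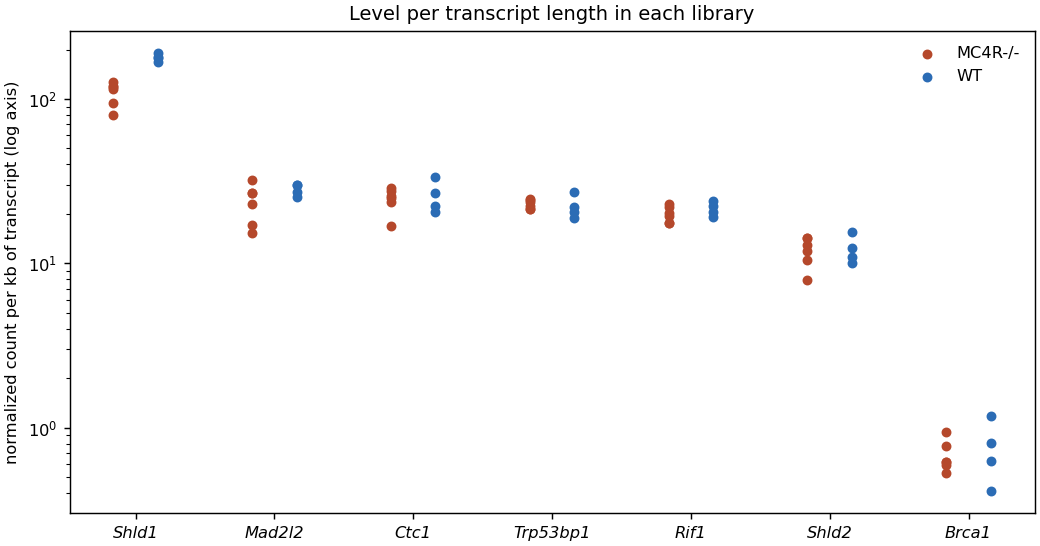
Normalized count per kb of transcript (vertical log axis) in each of 6 MC4R-/- and 4 WT libraries for the 7 genes, ordered by WT mean. Shld1 lies between 80.5 and 127 in MC4R-/- and between 168 and 190.1 in WT, above the other genes in all libraries, and Brca1 lies lowest.

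The rest of the pathway was read from 8 lists of repair, telomere and p53 target genes, 123 genes in all. Of these, 117 were tested, 3 lay below the filter and 3 had no row of their own. By limma, 0 of the 117 passed an adjusted p of 0.05 in either direction, against 0.459% of all genes. By edgeR and DESeq2 0 passed as well, while 60 and 118 of all 14611 genes did. DESeq2 gave no adjusted p for some genes, Prim1 among them. An unadjusted p below 0.05 (limma) was found for 10 of the 117, or 8.55%, against 9.6% of all genes. By list these were 3 of 17 for recruitment of Trp53bp1, 1 of 17 for shieldin partners, 0 of 14 for classical and 3 of 8 for alternative end joining, 0 of 15 for resection, 1 of 20 for recombination, 1 of 14 for telomeres and 1 of 12 for p53 targets. Their median log2 fold change was -0.01, as was that of all genes (-0.01).

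Genes that bring Trp53bp1 to the break gave 17 tested members with a median log2 fold change of -0.04, 12 of them lower and 5 higher. Kmt5b, a histone methyltransferase that makes a mark read by Trp53bp1, had 249.7 ± 14.5 normalized counts in MC4R-/- (SD, n = 6) and 289 ± 30.9 in WT (SD, n = 4; limma, adjusted p = 0.432). The histone variant H2ax, phosphorylated beside breaks, had 33.4 ± 7.03 in MC4R-/- and 44.5 ± 8.32 in WT (adjusted p = 0.493). The chromatin protein L3mbtl2 went the other way with 118 ± 11.1 in MC4R-/- and 93.8 ± 12.9 in WT (adjusted p = 0.31). Atm, the kinase that phosphorylates H2ax, had 112 ± 19.6 in MC4R-/- and 127 ± 13.8 in WT (adjusted p = 0.672).

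Partners of shieldin, with CST and DNA polymerase alpha, gave 17 tested members, 7 lower and 10 higher, with a median log2 fold change of 0.02. The smallest p belonged to Ahctf1, a nuclear pore protein, with 262 ± 27.9 normalized counts in MC4R-/- and 299 ± 31.8 in WT (limma, adjusted p = 0.514). Rev1, which works with Mad2l2 in translesion synthesis, had 151 ± 20.1 in MC4R-/- and 173 ± 19.0 in WT (adjusted p = 0.608). Prim1, the catalytic primase subunit, had 10.7 ± 3.58 in MC4R-/- and 7.64 ± 3.69 in WT (adjusted p = 0.704). Mad2l1bp had 92.1 ± 14.1 in MC4R-/- and 81.1 ± 14.8 in WT (adjusted p = 0.738).

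Classical end joining gave 14 tested members, 10 lower and 4 higher, with a median log2 fold change of -0.04. Prkdc, the catalytic subunit of the DNA-dependent kinase, had 85.6 ± 9.27 normalized counts in MC4R-/- and 100.5 ± 11.6 in WT (limma, adjusted p = 0.598). The ligation factor Nhej1 had 24.6 ± 3.69 in MC4R-/- and 18.7 ± 8.59 in WT (adjusted p = 0.594). The ligase Lig4 and its partner Xrcc4 had log2 fold changes of -0.20 ± 0.15 and -0.19 ± 0.15 (adjusted p = 0.732 and 0.733).

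Alternative end joining, which uses short repeats at trimmed ends, gave 8 tested members, 4 lower and 4 higher, with a median log2 fold change of 0.00. Polq, the polymerase of this route, had 167 ± 20.2 normalized counts in MC4R-/- and 135 ± 17.6 in WT (limma, adjusted p = 0.30). Parp3 had 409 ± 41.8 in MC4R-/- and 339 ± 36.3 in WT (adjusted p = 0.247). The ligase Lig3 had 229.5 ± 12.8 in MC4R-/- and 199 ± 15.9 in WT (adjusted p = 0.437), while its partner Xrcc1 had 119 ± 14.2 in MC4R-/- and 138 ± 14.02 in WT (adjusted p = 0.566).

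Resection factors and Brca1 partners gave 15 tested members, 7 lower and 8 higher, with a median log2 fold change of 0.01. Bard1, the obligate partner of Brca1, had 4.90 ± 1.93 normalized counts in MC4R-/- and 2.73 ± 1.20 in WT (limma, adjusted p = 0.647). Mre11a, the nuclease that opens resection, had 101 ± 19.4 in MC4R-/- and 87.5 ± 8.28 in WT (adjusted p = 0.698). The helicases Brip1 and Dna2 were below 11 normalized counts on average in both genotypes (adjusted p = 0.718 and 0.735).

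Homologous recombination gave 20 tested members, 11 lower and 9 higher, with a median log2 fold change of -0.03. Brca2, a tumour suppressor needed for this repair, had 14.3 ± 5.02 normalized counts in MC4R-/- (SD, n = 6) and 22.8 ± 2.42 in WT (SD, n = 4), a log2 fold change of -0.72 ± 0.28 (SE; limma, adjusted p = 0.357). Its libraries did not overlap, at 6.10 to 19.2 in MC4R-/- against 20.8 to 26.3 in WT. Sfr1, Rpa3 and Rpa2 had log2 fold changes of 0.15 ± 0.08, 0.34 ± 0.19 and -0.24 ± 0.14 (adjusted p = 0.569, 0.617 and 0.621).

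Telomere protection gave 14 tested members, 10 lower and 4 higher, with a median log2 fold change of -0.07. Rtel1, a helicase that opens telomere loops, had 53.3 ± 5.57 normalized counts in MC4R-/- and 72.0 ± 8.77 in WT (limma, adjusted p = 0.249). Its libraries did not overlap either, at 45.8 to 62.8 in MC4R-/- against 63.7 to 83.0 in WT. The shelterin subunits Terf2 and Pot1a had log2 fold changes of -0.23 ± 0.12 and -0.19 ± 0.13, and the telomerase factor Wrap53 one of 0.24 ± 0.16 (adjusted p = 0.567, 0.702 and 0.698). Non-overlap was found in 2 of the 117 list genes and in 2.28% of all genes.

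Targets of p53, which rise after DNA damage in many cells, gave 12 tested members, 3 lower and 9 higher, with a median log2 fold change of 0.07. Ccng1 had 7905 ± 686 normalized counts in MC4R-/- and 7217 ± 384 in WT (limma, adjusted p = 0.541). Trp53inp1 had 88.4 ± 15.8 in MC4R-/- and 118 ± 34.7 in WT (adjusted p = 0.399). Sesn2 and Zmat3 had log2 fold changes of 0.31 ± 0.22 and 0.16 ± 0.14 (adjusted p = 0.711 and 0.768).

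**Figure D4:**
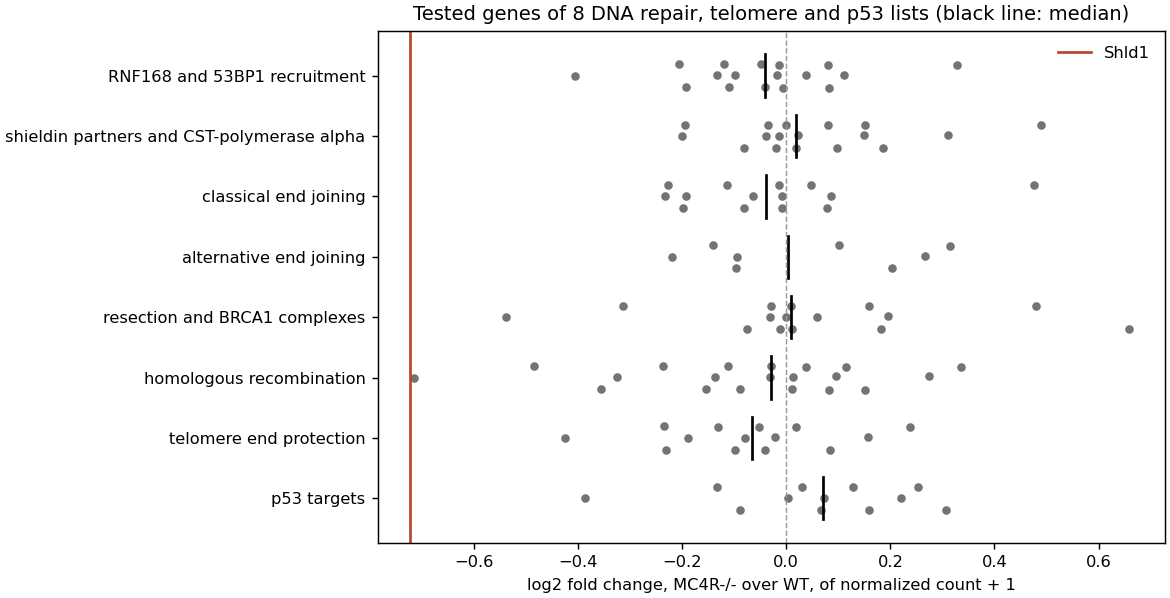
Log2 fold change, MC4R-/- over WT, of each tested gene (grey points) of the 8 lists, with black lines for list medians and the red line for Shld1 at -0.72. The list genes lie between -0.72 and 0.66, and no list median is farther from 0 than 0.07.

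The neighbours of Shld1 on chromosome 2 were set beside it. No tested gene overlaps it. An antisense transcript without a tested row, Gm14097, shares 48 exon bases with one Shld1 transcript in GENCODE. Among the 8 nearest tested genes, 4 on each side, 0 passed by limma (0.459% of all genes). Of the 8, 5 were lower (51.6% of all genes), and 2 had an unadjusted p below 0.05 (9.6% of all genes). These were Gpcpd1, 109 kb before Shld1, with 1750 ± 182 normalized counts in MC4R-/- (SD, n = 6) and 2017 ± 185 in WT (SD, n = 4; limma, adjusted p = 0.325), and Chgb, 30.6 kb after it, with 3.53 ± 2.71 in MC4R-/- and 0.897 ± 1.28 in WT (adjusted p = 0.437).

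The other 6 were Cds2, Pcna and Tmem230 before Shld1 and Trmt6, Mcm8 and Crls1 after it, with log2 fold changes from -0.21 (Trmt6) to 0.08 (Pcna). Pcna, the sliding clamp of DNA replication, had 229.9 ± 20.5 normalized counts in MC4R-/- and 217 ± 13.8 in WT. Mcm8, a helicase of recombination repair, had 30.4 ± 7.55 in MC4R-/- and 33.6 ± 6.25 in WT. Within 2 Mb on either side 34 other rows were tested, 2 of them joining several symbols. Of the 34, 0 passed by limma (0.459% of all genes), and 3 had an unadjusted p below 0.05 (9.6% of all genes).

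**Figure D5:**
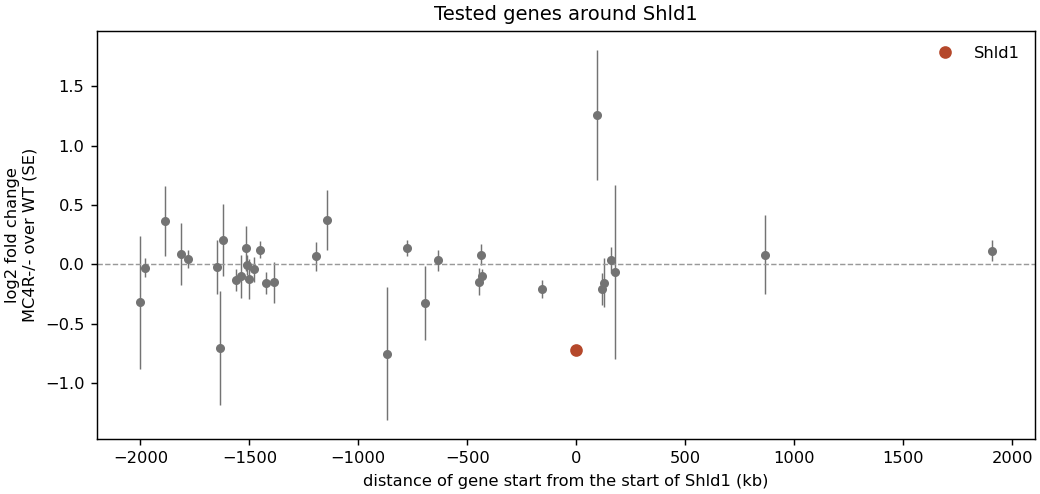
Log2 fold change, MC4R-/- over WT (vertical axis, bars for SE except for Shld1), of the tested rows within 2 Mb of Shld1, by distance of gene start from the start of Shld1 in kb. Shld1 lies at -0.72, and the 34 other rows scatter from -0.75 to 1.26, with none past the threshold.

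The genes whose profile over the 10 libraries was most like that of Shld1 were ranked by the mean absolute difference of log2 values, each gene centred on its own mean, among 10997 other genes with a mean of at least 20. The smallest differences were those of Tcp11l2 (0.118), Mblac2 (0.118), Ppargc1a (0.125), Tmem164 (0.139) and Etaa1 (0.142), against a median over all genes of 0.366. Ppargc1a encodes a coactivator of mitochondrial genes, and Etaa1 an activator of the damage kinase Atr. Since the Shld1 profile follows genotype, genes that are lower in MC4R-/- are favoured by this measure. In all 5 the genotypes do not overlap, as in 0.938% of all genes tested in the lower direction. By limma, Mblac2 and Etaa1 did not pass (adjusted p = 0.103 and 0.403), while Tcp11l2, Ppargc1a and Tmem164 did. Nothing is read from either for genes picked by likeness to Shld1. Ppargc1a had 755 ± 67.9 normalized counts in MC4R-/- and 1094 ± 16.5 in WT. Centred within each genotype, an alternative chosen after seeing the data, Ppargc1a was at rank 58 of the 10997 with a difference of 0.0963, against a median of 0.193. The ranks of Tcp11l2, Mblac2, Tmem164 and Etaa1 were then 321, 623, 651 and 1685. These 5 genes were picked by a difference that already holds the deviations within genotypes, so the ranks are not independent of that choice. The difference is also smaller for genes that vary little, whether or not they vary with Shld1. Of the 7 genes, Rif1 was the most like Shld1 by the first measure, at rank 1188 with a difference of 0.298. Shld2 was the least like it of those compared, at rank 8517 with 0.418.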

How the data were processed

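Polyadenylated RNA of left ventricle was sequenced in 6 MC4R-/- and 4 WT libraries, from 200 ng of RNA with an integrity number above 7 and a stranded kit, per the labels' protocols. Cuffdiff 2.2.1.3, Cuffnorm 2.2.1.1, Cufflinks 2.2.1, TopHat2 2.1.0, Bowtie2 and the mm10 genome are named, per the submitters' processing notes, without their roles. Each deposited value is a signal per gene, namely reads over the size factor of the library, with no division by length. Divided by what 1 read is worth, 99.9862% to 100% of the values of a library came out whole to within 0.1.

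Of 24160 rows, 23984 matched a symbol in RefSeq (GRCm38.p6) by accession. The genotypes were compared in R 4.3.3 by limma 3.58.1 (trend and robust) on log2(normalized count + 1), which understates changes of low genes, over the 14611 genes with a mean of at least 1. P-values are two-sided and adjusted by Benjamini-Hochberg. Alternatives on recovered reads were DESeq2 1.42.0 and the quasi-likelihood test of edgeR 4.0.16. The procedure was tested on simulated data, with changes placed only in genes of higher counts than Shld2, Mad2l2 and Brca1. The simulation therefore does not show how well changes in genes as low as these are found.

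The members and lists were chosen with earlier results of these data known, the motifs after the Shld1 promoter was seen. Named genes are the 7 members, up to 4 genes per list with the smallest p, the 4 nearest tested genes on each side of Shld1 and the 5 most like it. List genes on rows joined with another protein-coding gene (Rnf8, Rad54b) were left out.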

Additional observations from a re-analysis of the deposited data

Results flagged for a closer look

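Among 94 groups of libraries examined for the genes named above, 3 held a library far from the others. The nominal chance rate of the rule is about 1 in 20, which was not measured here. Atm had 149 normalized counts in MC4R-/- replicate 6, against 96.6 to 114 in the other MC4R-/- libraries. Polq had 108 in WT replicate 2, the library with lymphocyte transcripts, against 141 to 146 in the other WT libraries. Mcm8 had 42.9 in WT replicate 3, against 29.8 to 30.8 in the other WT libraries. No library of the 7 genes themselves stood out in this way.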

How the results depend on the processing

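Under each of 22 alternatives 0 of the 6 genes other than Shld1 and 0 tested genes of the 8 lists passed; with a mean of at least 10, Brca1 and several list genes were not tested. The Shld1 log2 fold change stayed between -0.79 and -0.64. The number of all genes called, 67 (limma), was 0 by limma without its trend and robust options (1290 by unadjusted p), 60 by edgeR and 118 by DESeq2 on recovered reads, 168 without both WT replicate 2 and MC4R-/- replicate 5, and from 26 (without WT replicate 4) to 117 (without WT replicate 2) when 1 library was left out. It was also 29, 31, 37 and 44 without MC4R-/- replicate 2, WT replicate 3, MC4R-/- replicate 1 and MC4R-/- replicate 3. The cause was not tested. Of the named genes, 5 turned sign, all with log2 fold changes near 0. With 1 library left out, Shld2 ran from -0.12 (without WT replicate 2) to 0.076 (without WT replicate 3), and was 0.07 without MC4R-/- replicate 5. Trp53bp1 ran from -0.011 (without WT replicate 2) to 0.16, Brca1 from -0.28 to 0.13 (without WT replicate 1), Ctc1 from -0.17 to 0.067 (without WT replicate 2), and Crls1 from -0.030 (without MC4R-/- replicate 4) to 0.077. Ctc1 was also 0.04 without MC4R-/- replicate 3. Without both WT replicate 2 and MC4R-/- replicate 5, Trp53bp1 was -0.031 and Ctc1 0.028. The Shld2 log2 fold change was 0.026 with the replicate block. Mad2l2 was -0.47 with the replicate block (limma, adjusted p = 0.59), and ran from -0.39 to -0.18 with 1 library left out. With the block 1 of the 6 genes had an unadjusted p below 0.05, as had 1192 of all 14611 genes. With the replicate block, over replicates 1 to 4, 51 genes were called. Same-numbered libraries did not deviate together (correlations from -0.15 to -0.031, and no WT library correlated best with its own number). DESeq2 gave no adjusted p for some genes, Brca1 and Prim1 among them. Depth limits Brca1 most, at 3 to 8 reads a library.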
